A study of Mus musculus with 8 samples.

Results

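The genes described are 38 markers of endothelial cells, the cells that line blood and lymphatic vessels. They were taken from the deposited table through probe sets annotated with a single gene symbol, and where a gene had several, the brightest on average was used. That rule found 37 of the 38, among 22180 genes with such a row. Rasip1 had no row of its own, because its probe set also carries the symbol Izumo1, and Shank3 was the 1 member with more than 1 row. All 37 lay outside the 25% of genes with the lowest mean level.

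RNA came from the thoracic aorta of newborn C57BL/6 mice (postnatal day 0). The groups were ascending aorta of fibulin-4 knockout pups, ascending aorta of wild-type pups, descending aorta of fibulin-4 knockout pups and descending aorta of wild-type pups, with 2 arrays each. Fibulin-4 is a secreted matrix protein needed to assemble elastic fibres. The ascending piece ran between the aortic valve and the ductus arteriosus, the descending piece between the vena cava and the diaphragm, and each array held RNA of 8 pups pooled by genotype and segment. The labels do not say whether ascending and descending pools came from the same pups, and the pools mix the RNA of whole aortic tissue, so endothelium is 1 cell type among several in every value.

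Endothelial cells are held together by adherens and tight junctions and sense blood flow at their surface. Their identity is kept by transcription factors of the ETS, SOX and GATA families, and their contact with vessel wall cells is tuned by the angiopoietin receptors of the Tie family. Lymphatic endothelium carries a further programme led by the homeobox factor Prox1, and flow raises Klf2 and Klf4 in the endothelium of straight arteries.

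The deposited values are log2 intensities made with RMA, a background correction, between-array normalisation and summary per probe set, and every level below is on that log2 scale. Values were spread less widely on replicate 2 of both wild-type groups, with an interquartile range over all genes of 1.80 in ascending and 1.74 in descending aorta, than elsewhere, where it was 2.14 to 2.28. Replicates had a Spearman rank correlation of 0.899 to 0.966 across genes. The smooth muscle actin gene Acta2 had log2 values between 12.10 and 12.45 on all 8 arrays. Genotypes are as labelled, since the level of the targeted gene is not analysed here. Differences were tested with limma over all 22180 genes, and a gene is called where its Benjamini-Hochberg adjusted p is under 0.05.

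The members were lowest in the knockout ascending aorta. The mean deviation of the 37 genes from their means over all arrays was -0.34 and -0.44 on the knockout ascending arrays, against 0.04 and -0.18 on the wild-type ascending arrays. It was 0.36 and 0.20 on the knockout descending arrays, against 0.37 and -0.01 on the wild-type descending arrays. For 22 of the 37 members the knockout ascending group had the lowest of the 4 group means, where this holds for 24.6% of all genes, and for 0 members it had the highest. The knockout descending group had the highest mean for 19 members, where this holds for 25.7% of all genes. In bulk tissue, fewer endothelial cells and less of these RNAs per cell cannot be told apart.

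**Figure D1:**
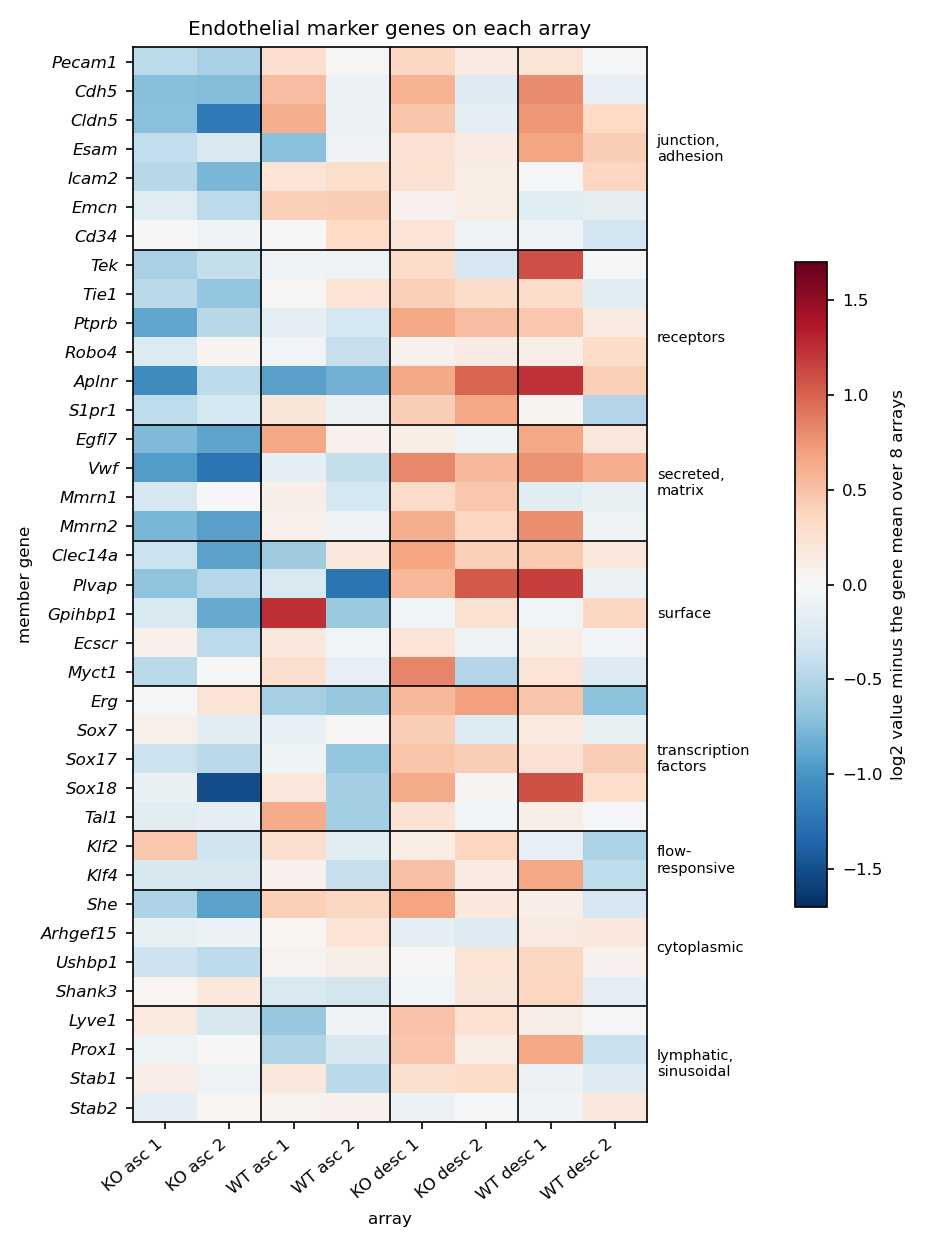
Heat map of 37 endothelial genes (rows, grouped by role) on 8 arrays (columns; KO, fibulin-4 knockout; WT, wild-type; asc, ascending; desc, descending). Colour is the log2 value minus the gene's mean over all arrays. Both knockout ascending columns are below the mean for most junction genes, receptors and secreted proteins, while Erg and Shank3 do not follow.

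The first question was how the members differ between knockout and wild-type in the ascending aorta. The log2 change was below 0 for 26 of 37 members, against 50.7% of all genes, and the median change was -0.26, against -0.01 over all genes. The knockout arrays both lay below both wild-type arrays for 17 members, where 18.3% of all genes did so. They both lay above for 3, Erg, Shank3 and Prox1, where 21.5% did so. With limma, 0 members were called, as were 0.0% of all genes, and the smallest adjusted p was 0.327, for Egfl7. At an unadjusted p under 0.05 there were 10 members lower, against 3.6% of all genes, and 0 higher, against 5.31%. The count of 10 was 2 without knockout ascending replicate 2, and the count of 0 was 1 without either wild-type descending array. After quantile normalisation 30 of 37 members were below 0.

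Most members are well expressed genes, and 20 of the 37 were among the brightest 20% of all genes. There the median change over all 4436 genes was 0.25, and that of the 20 members was -0.53.

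Of the junction and adhesion genes, 6 of 7 were below 0 in the knockout ascending aorta, with a median change of -0.74. Cldn5, the tight junction claudin of endothelium, had log2 values of 6.00 and 5.51 in knockout and 7.32 and 6.61 in wild-type ascending aorta. Its log2 change was -1.21 (SE 0.35, 95% interval -1.99 to -0.42, limma adjusted p = 0.414), a knockout over wild-type ratio of 0.433. The knockout and wild-type arrays of Cldn5 did not overlap, but the wild-type replicates were further apart than the gap between the groups.

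Icam2, a ligand of leukocyte integrins, had 5.79 and 5.49 in knockout and 6.48 and 6.56 in wild-type ascending aorta, a change of -0.89 (SE 0.26, limma adjusted p = 0.415). Emcn, the sialomucin endomucin, had 7.11 and 6.87 in knockout and 7.73 and 7.74 in wild-type, a change of -0.74 (SE 0.24, adjusted p = 0.448). In both genes the replicates were close and the groups did not overlap.

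Pecam1, an adhesion molecule of endothelial contacts that leukocytes and platelets also carry, had 8.20 and 8.09 in knockout and 8.93 and 8.66 in wild-type ascending aorta, a change of -0.65 (SE 0.25, limma adjusted p = 0.510). Cdh5, the cadherin of endothelial adherens junctions, had 7.49 and 7.48 in knockout and 8.74 and 8.12 in wild-type, a change of -0.95 (SE 0.39, adjusted p = 0.540). Neither gene overlapped between the groups, and the knockout replicates were closer to each other than the wild-type ones. Cd34, a sialomucin also present on fibroblasts and blood progenitors, differed by -0.20, and the junction protein gene Esam by 0.06, with a 95% interval of -0.57 to 0.69.

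Among the receptors, 4 of 6 were below 0, with a median of -0.41. Tie1, the partner receptor of the angiopoietin receptor, had 6.00 and 5.80 in knockout and 6.48 and 6.69 in wild-type ascending aorta, a change of -0.68 (SE 0.27, limma adjusted p = 0.512). Ptprb, the phosphatase that acts on Tie receptors and on VE-cadherin, had 6.72 and 7.15 in knockout and 7.46 and 7.32 in wild-type, a change of -0.45 (SE 0.26, adjusted p = 0.642). Tek, the angiopoietin receptor Tie2, and S1pr1, a receptor for sphingosine 1-phosphate, each differed by -0.41. In all 4 genes both knockout arrays lay below both wild-type arrays. The apelin receptor gene Aplnr (0.12) and Robo4, a guidance receptor that steadies vessel barriers (0.13), lay close to 0 with groups that overlapped.

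All 4 genes of secreted and matrix proteins were below 0, with a median of -0.83. Egfl7, a secreted protein of the endothelial matrix, had 6.18 and 6.03 in knockout and 7.58 and 6.99 in wild-type ascending aorta. Its change of -1.19 (SE 0.29, 95% interval -1.84 to -0.53, limma adjusted p = 0.327) was a ratio of 0.440, and it lay between -1.48 and -0.89 when each array was left out in turn. Vwf, the platelet-binding clotting factor stored by endothelium, had 6.78 and 6.50 in knockout and 7.58 and 7.33 in wild-type, a change of -0.81 (SE 0.26, adjusted p = 0.438). The groups of both genes were set apart by more than their replicates differed.

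Mmrn2, a multimerin of the vessel matrix, had 6.60 and 6.45 in knockout and 7.46 and 7.29 in wild-type ascending aorta, a change of -0.85 (SE 0.31, limma adjusted p = 0.500). Mmrn1, the multimerin of platelets and lymphatic endothelium, differed by -0.05. Platelets also hold both Vwf and Mmrn1, and platelet and megakaryocyte genes had a median change of 0.22 over 10 of 13 listed genes measured. Their summed linear level was between 1403 and 1580 in knockout and between 965 and 1444 in wild-type ascending aorta, and their part in these values was not tested.

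She, an adaptor with an SH2 domain, had 4.58 and 4.20 in knockout and 5.51 and 5.45 in wild-type ascending aorta. Its change was -1.09 (SE 0.29, limma adjusted p = 0.353), a ratio of 0.469, with no overlap. The other adaptors and regulators were Ushbp1 (-0.48), Arhgef15 (-0.25) and the scaffold gene Shank3 (0.39). Both probe sets of Shank3 were higher on both knockout arrays than on both wild-type arrays: the dimmer one had 4.58 and 4.31 in knockout and 4.13 and 4.25 in wild-type.

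Surface proteins were spread widely. The lipoprotein lipase anchor of capillaries, Gpihbp1, had 7.75 and 7.16 in knockout ascending aorta and 9.26 and 7.39 in wild-type, a change of -0.87 (SE 0.52) in which the lower wild-type array lay between the knockout arrays. The C-type lectin gene Clec14a differed by -0.43, Myct1 by -0.30, Ecscr, a regulator of endothelial chemotaxis, by -0.26, and Plvap, the diaphragm protein of fenestrae and caveolae, by 0.16. The groups overlapped for all 5 surface genes. Capillary endothelium of fat makes Gpihbp1, and the 14 measured fat genes of 15 listed had summed linear levels of 2290 and 2440 in knockout and 3022 and 2550 in wild-type ascending aorta. On every array of the series most of the fat sum came from Fabp4. Its log2 values were 10.52 and 10.79 in knockout and 10.71 and 10.86 in wild-type ascending aorta. The fat sum, like Gpihbp1, was highest on wild-type replicate 1 among these 4 arrays. The part of fat in the Gpihbp1 value was not tested.

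The transcription factors differed among themselves. Erg, the ETS factor that keeps endothelial identity, had 6.51 and 6.78 in knockout and 5.98 and 5.90 in wild-type ascending aorta, a change of 0.70 (SE 0.36, limma adjusted p = 0.606). It was thus higher on both knockout arrays, while Pecam1 and Cdh5 were lower on both. Erg minus Pecam1 on the same array, a difference of log2 values that shows unequal change only, was -1.69 and -1.31 in knockout and -2.95 and -2.76 in wild-type.

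The SOXF factors, which act in arterial and lymphatic endothelium, differed by 0.01 for Sox7, -0.05 for Sox17 and -0.62 for Sox18. Sox18 had 6.33 and 4.95 in knockout and 6.65 and 5.87 in wild-type ascending aorta, so its replicates were further apart than its groups. Tal1, a factor of endothelial and blood cell precursors, differed by -0.20, and red blood cell genes had a median of 0.01 over 7 of 15 listed genes measured. The flow-responsive factor Klf2 had 7.19 and 6.39 in knockout and 7.01 and 6.52 in wild-type, a change of 0.03 with a 95% interval of -0.72 to 0.78. Klf4, which smooth muscle cells can also make, had 6.40 and 6.39 in knockout and 6.73 and 6.27 in wild-type, a change of -0.11 with an interval of -0.93 to 0.70.

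Of the lymphatic and sinusoidal genes, 1 of 4 was below 0, with a median change of 0.22. Lyve1, the hyaluronan receptor of lymphatic endothelium and of some macrophages, had 9.17 and 8.74 in knockout and 8.37 and 8.96 in wild-type ascending aorta, a change of 0.29 (SE 0.29). Prox1 had 4.55 and 4.64 in knockout and 4.13 and 4.37 in wild-type, a change of 0.35 (SE 0.34). The scavenger receptor genes Stab1, also a macrophage gene, and Stab2 differed by 0.15 and -0.13. Only Prox1 and Stab2 had groups that did not overlap here, in opposite directions.

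Myeloid genes were higher on the same arrays. Of 20 measured genes of 21 listed, 20 were above 0 in the knockout ascending aorta, with a median of 0.79, and their summed linear level was 5135 and 4321 in knockout and 3311 and 1984 in wild-type. Since macrophages also make Lyve1 and Stab1, these values stand beside those of both genes, and their part in them was not tested. Smooth muscle genes had a median of 0.30, where the brightest 20% of all genes had 0.25. Skeletal muscle genes had a median of -1.48, with summed levels of 1469 and 728 in knockout and 2337 and 6710 in wild-type ascending aorta. The skeletal muscle level was highest on wild-type replicate 2, and the part of either muscle in the members' values was not tested.

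**Figure D2:**
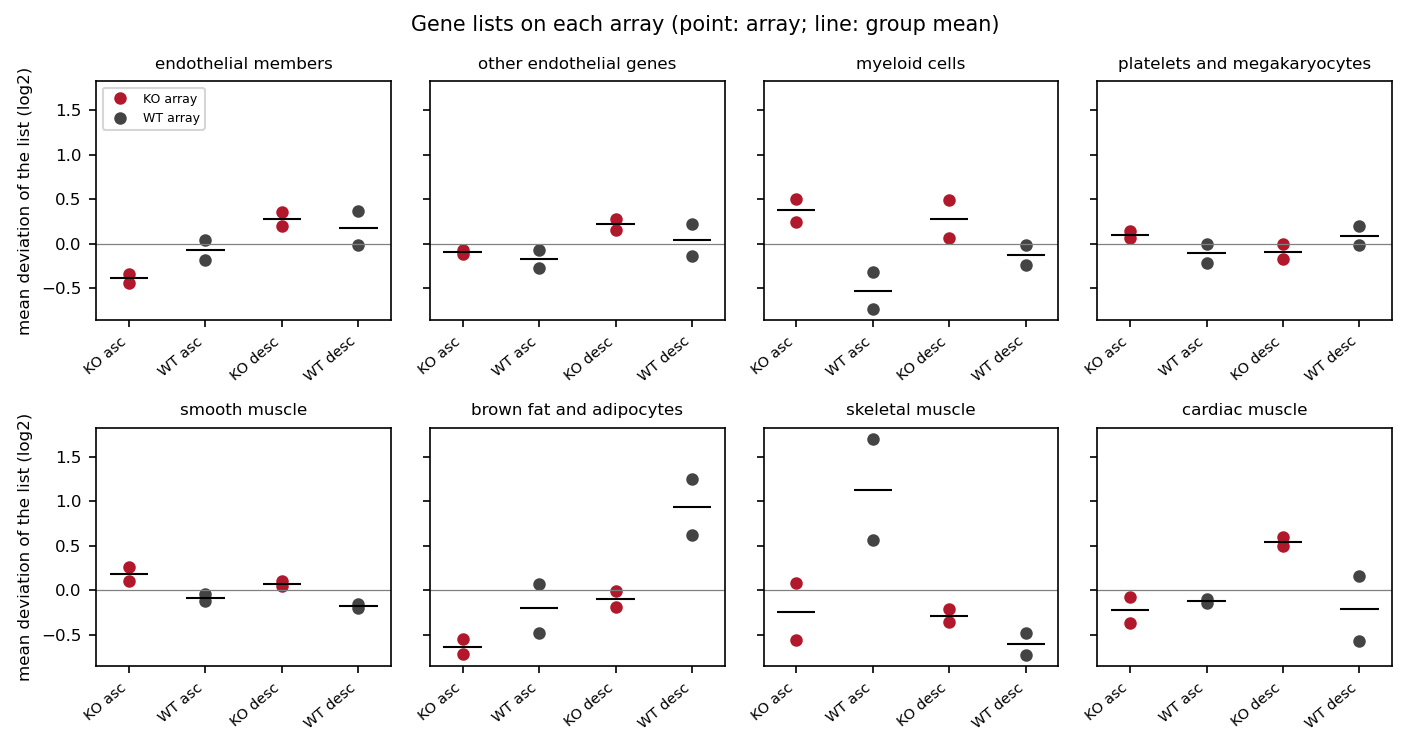
Mean deviation of 8 gene lists from their means over all arrays (log2), with 1 point per array, knockout (red) and wild-type (grey), and a line at the group mean. The endothelial members are lowest in knockout ascending aorta, where myeloid genes are higher than in wild-type, and fat genes are highest in wild-type descending aorta. The other endothelial genes are not lowest there: they lie at -0.07 and -0.11 in knockout and at -0.07 and -0.27 in wild-type ascending aorta.

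The promoters of the members that were lower in the knockout ascending aorta are shown because endothelial genes are commonly bound by ETS factors such as Erg, itself a member. Of the 10 members with an unadjusted p under 0.05 there, which also include Icam2, Vwf, Mmrn2, Pecam1 and Cdh5, 5 have a promoter in the RefSeq table of build GRCm38.p6, and the 250 bases before the first listed start are printed 5′ to 3′ on the gene's strand. Capitals mark AGGAAG or CGGAAG on either strand, the core of ETS binding sites.
Egfl7, chr2:26580833-26581082, plus strand: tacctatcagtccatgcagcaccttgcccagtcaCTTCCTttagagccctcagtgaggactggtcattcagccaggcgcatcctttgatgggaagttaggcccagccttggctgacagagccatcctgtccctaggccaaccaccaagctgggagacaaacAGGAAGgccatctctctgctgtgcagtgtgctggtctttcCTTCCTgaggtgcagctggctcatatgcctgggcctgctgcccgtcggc
She, chr3:89831120-89831369, plus strand: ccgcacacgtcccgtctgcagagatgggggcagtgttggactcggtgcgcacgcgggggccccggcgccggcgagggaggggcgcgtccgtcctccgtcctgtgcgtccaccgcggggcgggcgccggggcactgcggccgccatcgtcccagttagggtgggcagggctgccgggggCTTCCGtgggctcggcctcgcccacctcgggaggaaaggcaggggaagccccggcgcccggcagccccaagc
Cldn5, chr16:18776597-18776846, plus strand: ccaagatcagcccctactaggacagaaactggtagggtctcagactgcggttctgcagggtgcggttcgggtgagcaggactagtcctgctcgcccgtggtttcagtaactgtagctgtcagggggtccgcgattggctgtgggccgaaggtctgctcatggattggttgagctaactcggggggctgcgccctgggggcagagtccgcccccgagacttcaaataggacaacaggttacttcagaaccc
Emcn, chr3:137340828-137341077, plus strand: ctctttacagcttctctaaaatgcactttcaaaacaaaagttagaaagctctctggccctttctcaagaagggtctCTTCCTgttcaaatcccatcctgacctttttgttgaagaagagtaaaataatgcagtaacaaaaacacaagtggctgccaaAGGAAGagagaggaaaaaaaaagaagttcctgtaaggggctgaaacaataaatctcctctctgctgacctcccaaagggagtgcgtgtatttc
Tie1, chr4:118489850-118490099, minus strand: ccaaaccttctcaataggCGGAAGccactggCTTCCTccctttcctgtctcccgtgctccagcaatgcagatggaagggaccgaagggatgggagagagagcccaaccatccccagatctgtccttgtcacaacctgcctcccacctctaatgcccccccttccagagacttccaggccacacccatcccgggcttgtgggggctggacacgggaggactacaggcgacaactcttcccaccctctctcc

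The Egfl7 window held 3 such ETS cores, Emcn and Tie1 held 2 each, She held 1 and Cldn5 held 0. Among the 20 measured members with a promoter in the table, 9 held at least 1 ETS core, or 45.0%, against 39.0% of 27025 promoters of the same length. The composite of FOX and ETS sites, AACAGGAA, which overlaps the ETS letters, was in 3 of 20 against 2.16% of all promoters. SOX letters, AACAAT, were in 4 of 20 against 9.65%, and KLF letters, CCACACCC, in 2 of 20 against 3.19%, both strands being searched. These are matches of letters, with no measurement of binding. Windows without an ETS core included those of Erg, the highest member in ascending aorta (0.70), and Cldn5, the lowest (-1.21). A link between ETS cores and the direction of change was not tested.

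In the descending aorta the members lay on both sides of 0. The log2 change was below 0 for 14 of 37, against 46.3% of all genes, with a median of 0.11, against 0.03 over all genes. Among the brightest 20% of genes the median was 0.23 over all 4436 genes and 0.18 over the 20 members there. The members were thus not raised next to equally bright genes. After quantile normalisation 19 were below 0 and the median was -0.02. Without wild-type descending replicate 1, 8 were below 0 and the median was 0.27, and without wild-type descending replicate 2 the median was -0.012. Both knockout arrays lay below both wild-type arrays for 3 members, Esam, Egfl7 and Arhgef15, where 15.8% of all genes did so, and above for 10, where 21.6% did so. With limma, 0 members were called, against 0.00451% of all genes. At an unadjusted p under 0.05 there was 1 member higher, S1pr1, against 3.63% of all genes, and 0 lower, against 2.32%. The 0 was 1 without wild-type descending replicate 2 and 2 after quantile normalisation. The count of higher members was 0 without knockout descending replicate 2 or wild-type descending replicate 2, and 2 without wild-type descending replicate 1 or either wild-type ascending array.

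S1pr1 had 6.97 and 7.21 in knockout and 6.60 and 6.06 in wild-type descending aorta, a log2 change of 0.76 (SE 0.28, 95% interval 0.13 to 1.38, limma adjusted p = 0.785). Pecam1 had 9.00 and 8.79 in knockout and 8.86 and 8.63 in wild-type, a change of 0.15 (SE 0.25). Cdh5 had 8.80 and 7.99 in knockout and 9.02 and 8.08 in wild-type, a change of -0.16 (SE 0.39). Both junction genes overlapped between the genotypes here, and the replicates of Cdh5 were over 0.5 apart in each.

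Egfl7 had 7.05 and 6.85 in knockout and 7.58 and 7.11 in wild-type descending aorta, a change of -0.39 (SE 0.29). Cldn5 had 7.18 and 6.54 in knockout and 7.45 and 7.05 in wild-type, also a change of -0.39 (SE 0.35). Vwf had 8.55 and 8.29 in knockout and 8.50 and 8.36 in wild-type, a change of -0.01. Of these 3 genes, only Egfl7 had knockout arrays that both lay below the wild-type ones.

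Erg had 7.09 and 7.24 in knockout and 7.02 and 5.84 in wild-type descending aorta, a change of 0.74 (SE 0.36, limma adjusted p = 0.843) that was 0.15 without wild-type descending replicate 2. Klf2 had 6.85 and 7.10 in knockout and 6.60 and 6.19 in wild-type, a change of 0.58 (SE 0.33). Klf4 had 7.16 and 6.81 in knockout and 7.31 and 6.23 in wild-type, a change of 0.21 (SE 0.36). In each of these transcription factors wild-type replicate 2 was the lowest of the 4 descending arrays, and it is 1 of the 2 arrays with a narrower spread of values.

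Lyve1 had 9.50 and 9.27 in knockout and 9.11 and 8.99 in wild-type descending aorta, a change of 0.34 (SE 0.29). Prox1 had 5.11 and 4.78 in knockout and 5.30 and 4.27 in wild-type, a change of 0.16 (SE 0.34). Stab1 differed by 0.44 and Mmrn1 by 0.54, with no overlap in either, while the median over the myeloid genes was 0.39 (18 of 20 above 0), and their summed levels were 5310 and 3838 in knockout and 3664 and 3241 in wild-type. Fat genes stood opposite, with summed levels of 3713 and 3972 in knockout and 7934 and 6336 in wild-type descending aorta; Gpihbp1, made by capillaries of fat, differed by -0.05 with a 95% interval of -1.21 to 1.12.

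**Figure D3:**
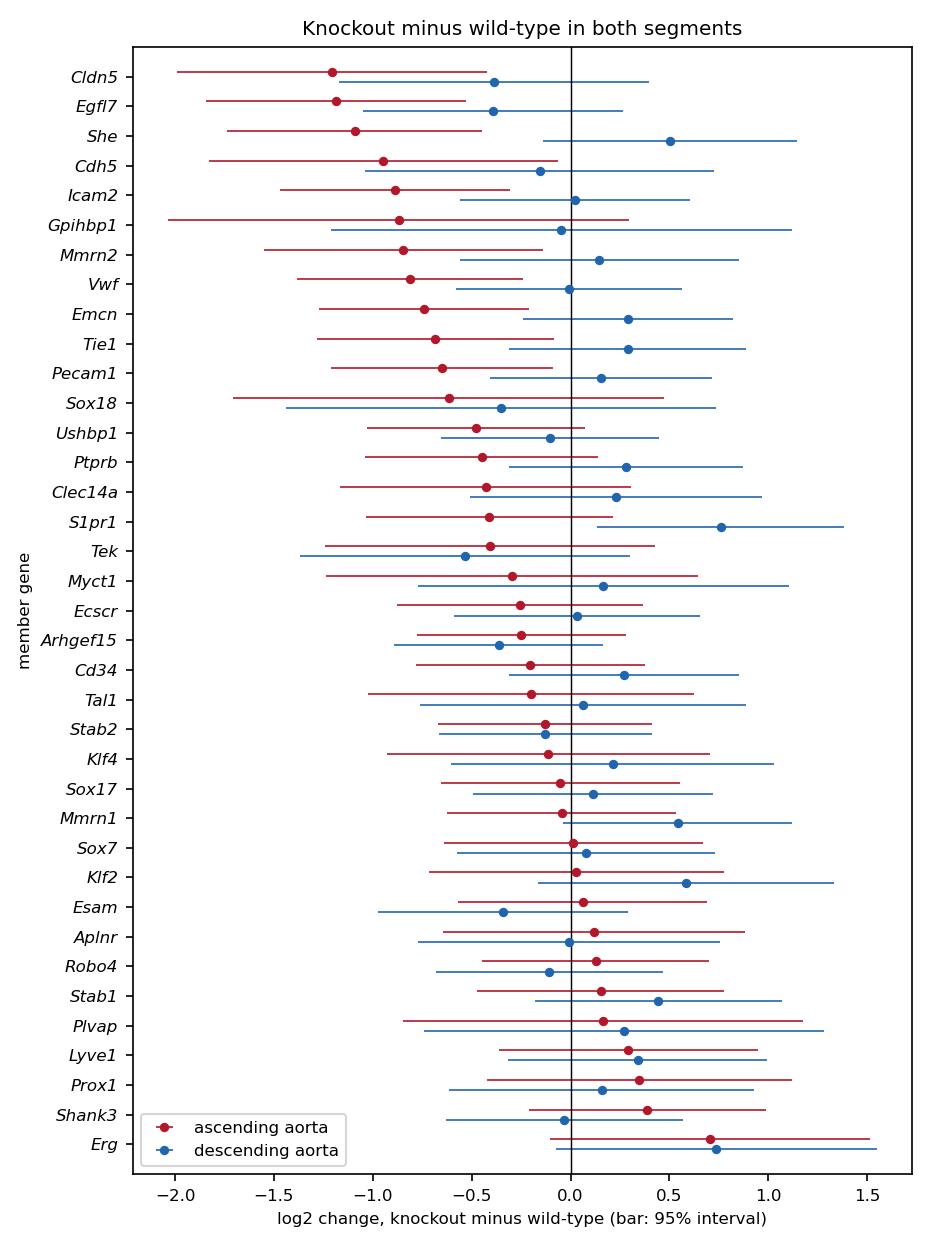
Log2 change of each member, knockout minus wild-type, in ascending (red) and descending aorta (blue), with the 95% interval of the limma fit. Ascending values reach -1.21 for Cldn5. The intervals are not adjusted for the number of genes. In ascending aorta they exclude 0 for 10 members, all lower, against 3.6% of all genes. In descending aorta they do so for S1pr1 alone, higher at 0.76, against 3.63% of all genes.

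Averaged over both segments, 22 of 37 members were below 0, against 50.2% of all genes, with a median of -0.10, against -0.0013 over all genes. With limma 0 were called, against 0.0721% of all genes, and the smallest adjusted p was 0.251, for Egfl7 (-0.79, SE 0.21). At an unadjusted p under 0.05 there were 4 lower, Egfl7, Cldn5 (-0.80), Icam2 (-0.43) and Vwf (-0.41), against 3.83% of all genes, and 1 higher, Erg (0.72, SE 0.26), against 7.57%. The count of 4 was 2 without knockout ascending replicate 2, wild-type ascending replicate 1 or knockout descending replicate 2, and 10 after quantile normalisation. Erg did not reach that level without knockout ascending replicate 2, knockout descending replicate 2 or wild-type descending replicate 2. The median lay between -0.17 and -0.04 as single arrays were left out. Egfl7 and Arhgef15 were the 2 members with both knockout arrays below both wild-type arrays in each segment, where 4.04% of all genes were, and Erg was the 1 member above in each, where 7.81% were.

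Whether the segments differed in the effect of the knockout was asked with the difference of both changes, ascending minus descending. It was below 0 for 30 of 37 members, against 52.4% of all genes, with a median of -0.37, against -0.03 over all genes. For 16 of 37 members (43.2%) the change was below 0 in ascending and above 0 in descending aorta, against 21.5% of all genes. With limma 0 members were called, against 0.0% of all genes, and every adjusted p was 1.0 to 2 significant digits. At an unadjusted p under 0.05 there were 6 members, all lower, She, Emcn, S1pr1, Tie1, Icam2 and Pecam1, against 1.68% of all genes, and 0 higher, against 1.62%. The count of 6 was 3 without knockout ascending replicate 2, knockout descending replicate 1 or wild-type descending replicate 2, and 2 without knockout descending replicate 2. With all arrays kept, the count lay between 5 and 9 over the alternatives, and it was 9 with the replicate number as a block. The median of -0.37 moved to -0.61 if wild-type ascending replicate 2 was left out, and to -0.62 if it was wild-type descending replicate 1. Of 51 further endothelial genes, a list described below, 31 were below 0, with a median of -0.08. In limma 0 of the 51 were lower at an unadjusted p under 0.05, against 1.68% of all genes. Muscle genes stood on the same side as the members in this contrast, with 13 of 13 skeletal muscle genes below 0 (median -1.52) and 11 of 13 cardiac muscle genes below 0 (median -0.87). The summed level of the cardiac genes was 2366 and 2035 in knockout and 1967 and 2110 in wild-type ascending aorta, and 4056 and 4313 in knockout and 2448 and 1159 in wild-type descending aorta. Myeloid genes (median 0.55) and fat genes (median 0.41) stood on the other side, and the part of these tissues in the members' values was not tested.

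She had the largest difference among the members, -1.60 (SE 0.41): against the ascending change of -1.09, its descending arrays had 5.77 and 5.28 in knockout and 5.22 and 4.82 in wild-type, a change of 0.50. Emcn differed between segments by -1.03 (SE 0.33), with descending values of 7.40 and 7.45 in knockout and 7.12 and 7.15 in wild-type. S1pr1 differed by -1.17 (SE 0.39). In these 3 genes and in Ptprb (-0.73) both knockout arrays lay below both wild-type arrays in ascending and above them in descending aorta, which 2.27% of all genes did. Tie1 had 6.86 and 6.77 in knockout and 6.78 and 6.27 in wild-type descending aorta, and its segments differed by -0.97 (SE 0.38). Icam2 had 6.52 and 6.38 in knockout and 6.23 and 6.62 in wild-type descending aorta, and its segments differed by -0.91 (SE 0.37).

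The segments were then compared within each genotype. In the knockout, ascending minus descending was below 0 for 34 of 37 members, against 51.7% of all genes, with a median of -0.54, against -0.01 over all genes. Both ascending arrays lay below both descending arrays for 29 members, where 20.8% of all genes did so, and above for 1, Arhgef15, where 18.3% did so. Of the 51 further endothelial genes, 39 were also below 0, with a median of -0.30. Without overlap, 29 of the 51 were lower and 5 higher. With limma 0 members were called, against 0.0% of all genes, and the smallest adjusted p was 0.156, for Vwf. At an unadjusted p under 0.05 there were 16 lower, against 2.04% of all genes, and 0 higher, against 2.0%. The count of 16 was 8 without knockout ascending replicate 2 and 10 without knockout descending replicate 1, and 33 or 34 members were below 0 whichever array was left out. Fat genes were also below 0, 14 of 14 with a median of -0.51, and their summed level was 2290 and 2440 in ascending and 3713 and 3972 in descending knockout aorta. Cardiac muscle genes had 9 of 13 below 0 and a median of -0.64, with 8 of 13 lower without overlap and summed levels of 2366 and 2035 in ascending and 4056 and 4313 in descending knockout aorta. The part of fat and heart tissue in the members' values was not tested.

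Vwf had 6.78 and 6.50 in ascending and 8.55 and 8.29 in descending knockout aorta, a log2 difference of -1.78 (SE 0.26, 95% interval -2.35 to -1.21), or a ratio of 0.291. It was called, at an adjusted p of 0.021, in the fit with array weights, and the smallest adjusted p of a member in this comparison ran between 0.021 and 1.0 over the alternatives. Ptprb had 6.72 and 7.15 in ascending and 8.27 and 8.13 in descending knockout aorta, a difference of -1.27 (SE 0.26, limma adjusted p = 0.550). Both genes were far apart between segments next to the spread of their replicates.

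Aplnr had 5.03 and 5.65 in ascending and 6.74 and 7.08 in descending knockout aorta, a difference of -1.57 (SE 0.34, limma adjusted p = 0.550). Mmrn2 had 6.60 and 6.45 in ascending and 7.99 and 7.74 in descending knockout aorta, a difference of -1.34 (SE 0.31, adjusted p = 0.683). She (-1.14), Clec14a (-1.18) and Plvap (-1.39) were also over 1 lower on the log2 scale in the ascending segment, as were Sox18 (-1.16) and Cldn5 (-1.11). Every junction gene, receptor, secreted protein, surface protein and transcription factor measured was below 0. The 3 members above 0 were Arhgef15 (0.07), Shank3 (0.03) and Stab2 (0.01).

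In wild-type aorta the segment difference was below 0 for 23 of 37 members, against 48.3% of all genes, with a median of -0.12, against 0.01 over all genes. Leaving out wild-type ascending replicate 1 gave a median of -0.35. Leaving out an array of the wild-type descending group gave 0.0026 (replicate 1) or -0.29 (replicate 2). Both ascending arrays lay below both descending arrays for 11 members, where 14.1% of all genes did so, and above for 3, Emcn, Cd34 and She, where 15.9% did so. Of the 51 further endothelial genes, 36 were below 0, with a median of -0.19. Without overlap, 15 of the 51 were lower and 4 higher. With limma 0 members were called, against 0.00902% of all genes. At an unadjusted p under 0.05 there were 5 lower, Aplnr, Vwf, Esam, Plvap and Sox17, against 2.98% of all genes, and 1 higher, Emcn, against 3.21%; the 5 were 9 if wild-type descending replicate 2 was dropped and 8 if both wild-type replicate 2 arrays were, and the 1 was 0 in 7 alternatives.

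Aplnr had 5.17 and 5.28 in ascending and 7.33 and 6.50 in descending wild-type aorta, a difference of -1.69 (SE 0.34, limma adjusted p = 0.344), or a ratio of 0.309. Vwf had 7.58 and 7.33 in ascending and 8.50 and 8.36 in descending wild-type aorta, a difference of -0.97 (SE 0.26, adjusted p = 0.514). For both genes the segments were apart in the same direction in knockout and wild-type, whose arrays are separate.

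Esam had 5.35 and 5.98 in ascending and 6.73 and 6.47 in descending wild-type aorta (-0.94, SE 0.28). Plvap had 5.94 and 4.96 in ascending and 7.38 and 6.10 in descending wild-type aorta (-1.29, SE 0.45). Sox17 had 5.86 and 5.28 in ascending and 6.18 and 6.35 in descending wild-type aorta (-0.70, SE 0.27). The arrays of these 3 genes did not overlap between segments. The segment difference of Emcn was -0.43 in the knockout, against 0.60 (SE 0.24) in wild-type. Fat genes also differed between wild-type segments, with summed levels of 3022 and 2550 in ascending and 7934 and 6336 in descending aorta; the part of fat capillaries in the wild-type segment values was not tested.

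**Figure D4:**
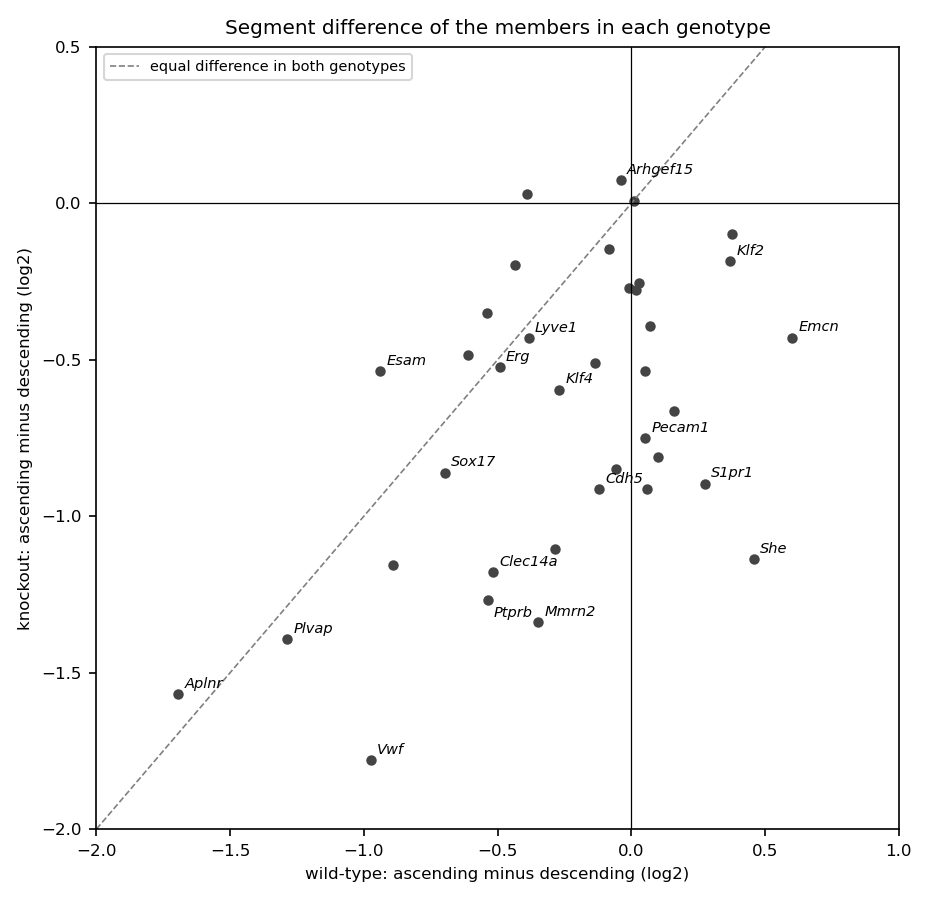
Ascending minus descending log2 difference of each member in the knockout (vertical axis) and in wild-type (horizontal axis), 1 point per gene; the dashed line marks equal differences. Of the 37 points 30 lie below the line, and Aplnr, Plvap and Vwf are lower in the ascending segment of both genotypes.

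The members did not vary as 1 block. As a description over 8 arrays that share their groups, Pearson's r between a member and the mean of the other 36 was at least 0.7 for 17 members, between 0.3 and 0.7 for 14 and under 0.3 for 6. Mmrn2 (0.98), Vwf (0.93), Ptprb (0.91), Pecam1 (0.89) and Tie1 (0.86) followed the others most closely. Stab2 (-0.18), Arhgef15 (-0.02), Cd34 (-0.01), Klf2 (0.12), Shank3 (0.20) and Emcn (0.26) were the 6 at the other end. Replicates differed most for Gpihbp1, with a pooled SD of 0.72, and least for Arhgef15, with 0.08.

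A list of 54 further endothelial genes, of which 51 were measured, was spread to both sides in the ascending aorta. Its median change there was 0.08, with 24 below 0. Of the 51, 2 were lower at an unadjusted p under 0.05, against 3.6% of all genes, and 5 were higher, against 5.31%, so the count of 2 is near the share of all genes. Nos3, the endothelial nitric oxide synthase, had 5.31 and 5.48 in knockout and 6.21 and 6.00 in wild-type ascending aorta (-0.71, SE 0.25), and Gja5, an arterial connexin, had 5.35 and 5.04 in knockout and 6.02 and 5.74 in wild-type (-0.68, SE 0.25). Both lay with the lower members. The VEGF receptor gene Flt1 had 6.91 and 7.42 in knockout and 5.86 and 5.98 in wild-type (1.24, SE 0.28, limma adjusted p = 0.283). The adhesion genes of activated endothelium, Sele (1.13, SE 0.27) and Vcam1 (0.69, SE 0.26), were higher on both knockout arrays as well. In the descending aorta the same list had a median of 0.16, with Flt1 at 1.11 (SE 0.28), Pdpn, a mucin-type protein of lymphatic endothelium, at 0.73 (SE 0.26) and Vcam1 at 0.71 (SE 0.26). Gja5 had 6.04 and 6.04 in knockout and 6.50 and 6.60 in wild-type descending aorta (-0.51, SE 0.25), with no overlap. Calcrl, the adrenomedullin receptor, was at -0.38 (SE 0.27) and Procr, the protein C receptor, at -0.32 (SE 0.34). In that segment 0 genes of the list were lower at an unadjusted p under 0.05, against 2.32% of all genes, and 5 were higher, against 3.63%. In the average over segments the smallest adjusted p in the list was 0.0904, for Flt1, and Gja5 was at -0.59 (SE 0.18, limma adjusted p = 0.302).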

How the data were processed

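RNA of ascending or descending aorta from 8 pups per pool was amplified, biotinylated and hybridised to Affymetrix mouse gene arrays, as the labels' protocols state. The authors deposited log2 values per probe set, for which Expression Console and RMA are named per the submitters' processing notes. Tool versions and the genome build are not stated in these sources.

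Of 41345 probe sets, 23521 carried 1 gene symbol in the platform annotation, 1814 several and 16010 none there; 23328 matched RefSeq genes (GRCm38.p6) by identifier. Keeping the brightest probe set of each gene left 22180 genes. A limma 3.58.1 model (R 4.3.3) had 1 mean per group and a common spread, with 4 residual and 5.52 prior degrees of freedom, and Benjamini-Hochberg adjustment over all genes. Replicates are biological per the labels, and 2 arrays a group limit the precision. Members, lists and tests were chosen with earlier results of these data known, so lists are given as counts and medians without a test.

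Values per array are given for up to 5 members per direction and comparison, by smallest unadjusted p under 0.05, and for Pecam1, Cdh5, Klf2, Klf4, Lyve1 and Prox1. Others shown were chosen after their values were seen. Of the further endothelial genes up to 3 per direction could be named. Summed levels add 2 to the power of each log2 value. Fits were checked on simulated data. There, 13.4% of genes with a true log2 change of 1 were called for the knockout effect in ascending aorta, and 61.2% in the average. At a true change of 2 this was 86.6% in ascending aorta. A change of 1 in 1 segment would thus mostly be missed. False calls numbered 13 in ascending aorta and 24 in the average, where 67 genes had a true change of 1, 67 of 2 and 66 of 3. In both, false calls were a larger share of all calls than the 0.05 of the threshold. No label ties replicate numbers together, and no block was used. Deviations of same-numbered arrays correlated between segments at -0.02 in knockout and 0.29 in wild-type, and at -0.08 to 0.12 between other groups. Both wild-type replicate 2 arrays had the narrower spread of values, and a factor they share is not modelled. Alternatives changed the scaling, the probe set rule, the filter, the fit options or the threshold, or left out arrays. Plots used Python 3.11.15 and matplotlib 3.10.9.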

Additional observations from a re-analysis of the deposited data

Results flagged for a closer look

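Emcn, Ptprb, S1pr1 and She stood out because both knockout arrays lay below both wild-type arrays in the ascending aorta and above both in the descending aorta. The difference of the knockout effect, ascending minus descending, was -1.03 for Emcn, -0.73 for Ptprb, -1.17 for S1pr1 and -1.60 for She on the log2 scale. No adjusted p of the limma test of that difference passed (1.0 for each to 2 significant digits). With 2 arrays a group such an arrangement was seen in 2.27% of all genes.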

How the results depend on the processing

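With 2 pools per group and log2 values without detection calls, only large differences could pass the test, and the distance of dim members from background is unknown. The number of members called at an adjusted p under 0.05 was 0 in all 6 comparisons and stayed 0 under every alternative run, an adjusted p under 0.1 included, except that 1 member, Vwf, was called with array weights for ascending minus descending in the knockout. The smallest adjusted p of a member over these alternatives lay between 0.0845 and 0.984 for the knockout effect in ascending aorta.

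When each array was left out in turn, the median change of the members lay between -0.37 and -0.22 for the knockout effect in ascending aorta, between -0.012 and 0.27 in descending aorta and between -0.17 and -0.04 in their average. It lay between -0.62 and -0.24 for the difference between segments, between -0.77 and -0.54 for ascending minus descending in the knockout and between -0.35 and 0.0026 for the same in wild-type. Without both wild-type replicate 2 arrays the wild-type segment median was -0.28. All other medians under the alternatives moved by less than 0.15, the spread between replicate arrays of the member median. A block for the replicate number is balanced over the groups, so it cannot move a log2 change or a median. The block changed no call of a member. Lower members at an unadjusted p under 0.05 in limma were 9 with the block and 6 without it for the difference between segments. In the average over segments they were 6 with it and 4 without it, and in ascending aorta 10 either way. Of 2268 values of 21 members under the alternatives, 2129 moved by less than the spread between replicates, 138 by more, and 92 changed sign. Many of the 2129 could not move. The filter, the block and the fit options leave a log2 change or median as it was, as does leaving out an array that a comparison does not use. Leaving out 1 of 2 replicates moves a value by an amount tied to that same spread. The count of 2129 is therefore no measure of stability.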
